A study of Sus scrofa with 2 samples.

Results

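Nuclei with the transcripts of microvillar cells or ionocytes made up 199 of the 10769 nuclei in the series, 91 in the wild type library and 108 in the CFTR knockout library. A nucleus was taken as a member when it had at least 1000 UMIs (unique molecular identifiers, each standing for 1 captured transcript) and UMIs of at least 2 of the 5 genes STAP1, CLNK, FOXI1, ASCL3 and HEPACAM2. Nuclei with UMIs of 3 or more of the 6 endothelial and macrophage genes PTPRB, FLT1, CSF1R, CD163, MRC1 and MSR1 were left out, which removed 5 wild type nuclei and 1 knockout nucleus. CFTR played no part in the choice. Members were 2.10% (exact 95% interval 1.70% to 2.57%) of the 4329 wild type nuclei and 2.30% (1.89% to 2.76%) of the 4705 knockout nuclei with 1000 or more UMIs. When each nucleus was thinned to 1000 UMIs, 29 wild type and 43 knockout nuclei met the rule.

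The study sequenced RNA from single nuclei of frozen olfactory mucosa, the nasal lining where the odour-sensing neurons sit, from newborn pigs. Its groups were a wild type piglet and a CFTR knockout piglet, with 1 library each. The labels name no allele, litter or treatment, and nothing else that the groups share beyond species, tissue and age. With 1 library per genotype no difference was tested, and each ratio compares these libraries and not the genotypes. All intervals are 95% intervals for counting error only.

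CFTR is an apical chloride and bicarbonate channel, and its loss causes cystic fibrosis. Ionocytes are sparse epithelial cells that depend on the transcription factor FOXI1 and are known in the airway for a high level of CFTR together with a vacuolar proton pump. In the olfactory epithelium such cells belong to the microvillar cells, which lie among the sustentacular support cells. Another kind of microvillar cell resembles the chemosensory tuft cell, depends on POU2F3 and carries the channel TRPM5.

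Members had a median of 5151 UMIs in the wild type and 5580 in the knockout library, against 3239 and 2654 over all nuclei with at least 1000 UMIs. Nuclei with at least 3 of the markers fixed for mature olfactory neurons numbered 907 in the wild type and 443 in the knockout library outside the members, so the labelled tissue showed its defining cells. Over all nuclei with at least 1000 UMIs, mitochondrial transcripts were 2.72% of the UMIs in the wild type and 1.22% in the knockout library. The libraries shared 8 barcodes, and no barcode was a member in both.

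Members fell into a compact cluster and a scattered remainder. Nuclei were clustered without the 5 rule genes, without CFTR and without mitochondrial transcripts. Cluster 17 held 34 members among its 34 wild type nuclei and 36 members among its 38 knockout nuclei. It was called ionocyte-like from the marker list STAP1, CLNK, FOXI1, ASCL3, HEPACAM2 and DGKI, of which only DGKI was not used to choose the members. DGKI had a UMI in 31 of the 34 wild type members and 34 of the 36 knockout members there. Of 7 measured ionocyte genes that the rule did not use, at least 3 had a UMI in 20 wild type members and 11 knockout members of the cluster. The summed level of the 7 genes there was 1615 and 1360 CPM (counts per 1e6 UMIs summed over the nuclei), against 38.4 and 61.4 CPM in nuclei that were not members. Of the 7, 2 had 0 UMIs in the cluster in each library. TFCP2L1, ATP6V1G3 and ATP6V1B1 had 75, 43 and 38 UMIs there in the wild type and 66, 33 and 39 in the knockout library. Among nuclei with 1000 or more UMIs these were 0.785% (0.545% to 1.10%) in the wild type library and 0.765% (0.536% to 1.06%) in the knockout library.

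The other 57 wild type and 72 knockout members lay in clusters of other cell types. Their median depth was 9096 and 7796 UMIs, against 2720 and 2275 UMIs in cluster 17. In the wild type library 12 lay in sustentacular-like cluster 5, 12 in immature neuron-like cluster 3 and 9 in mature neuron-like cluster 0. In the knockout library 27 lay in ciliated-like cluster 18 and 11 in cluster 5. Cluster 18 had 37 wild type and 532 knockout nuclei, and members were 5.41% and 5.08% of them, so the member counts there followed its size. Markers of another cell type, 3 or more of a list that held up to 6, were present in 47 of the 57 (82.5%) and 65 of the 72 (90.3%), against 5 of 34 (14.7%) and 13 of 36 (36.1%) of the members in cluster 17. The doublet score, which rises when a droplet resembles a mixture of nuclei, had a median of 0.0942 and 0.0842 outside cluster 17 and of 0.0483 and 0.0562 inside it. Whether the nuclei outside cluster 17 are droplets with more than 1 nucleus was not tested. The main results are therefore given for all members and for the members in cluster 17, a choice made after the data were seen. Some values are given for 1 of these sets only.

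**Figure D1:**
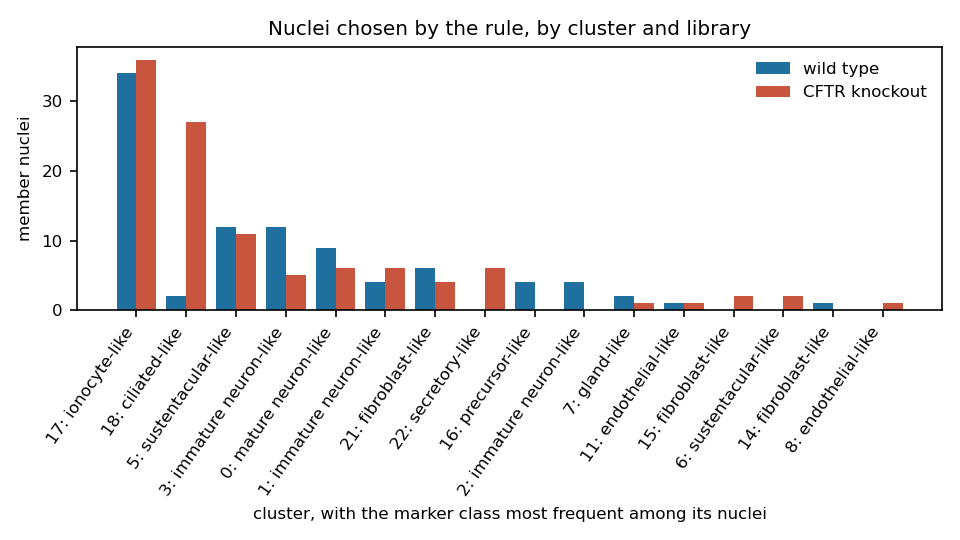
Number of member nuclei (vertical axis) in each cluster (horizontal axis, with the marker class most frequent among the nuclei there that are not members), for the wild type and knockout libraries. Cluster 17 held 34 and 36 members, and ciliated-like cluster 18 held 2 among its 37 and 27 among its 532 nuclei.

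Among the rule genes, the adaptor protein gene STAP1 was seen in 76 of the 91 wild type members and 100 of the 108 knockout members. CLNK, an adaptor of immune receptor signalling, was seen in 67 and 82. HEPACAM2, an immunoglobulin-like membrane protein, was seen in 67 and 84. FOXI1 was seen in 20 members with 26 UMIs and in 14 members with 16 UMIs, and it had 0 UMIs in every other nucleus with at least 1000 UMIs of both libraries. Against a floor of 3 counts in those other nuclei, its level in members was at least 208-fold higher in the wild type and at least 99.05-fold higher in the knockout library. ASCL3, a basic helix-loop-helix factor of ionocytes, was seen in 4 and 2 members. These values describe the choice and support nothing further. HEPACAM2 was the least restricted of them, with 672 and 560 UMIs outside the members. The most frequent combination was STAP1 with CLNK and HEPACAM2, in 22 wild type and 41 knockout members. STAP1 with HEPACAM2 came next in both, in 20 and 24, of which 2 and 3 lay in cluster 17.

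At the threshold, 51 wild type and 52 knockout members had exactly 2 rule genes, and 593 and 585 nuclei had exactly 1 and stayed out. CFTR stood at 357 CPM in wild type members with 2 rule genes, at 44.4 CPM in nuclei with 1 and at 68.5 CPM in nuclei with 0. In members with 3 it was at 1153 CPM and in those with 4 at 1172 CPM. In the knockout library the levels with 0 to 4 rule genes were 9.95, 13.1, 42.6, 77.7 and 51.6 CPM. The last of these came from 4 CFTR UMIs.

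Defining tuft cell genes were at or near 0 in cluster 17, where total UMIs were few, and present at a low level outside it. None of POU2F3, TRPM5, AVIL and GFI1B had a UMI in any of the 34 wild type and 36 knockout members in cluster 17. Outside it, 10 of 57 and 13 of 72 members had a UMI of at least 1 of these genes. Of the 6 tuft markers, 6 were at 0 UMIs in cluster 17 in the wild type and 5 in the knockout library. A count of 0 there allows up to 27.9 CPM per gene in the wild type library. That is above the sum of these markers in nuclei that were not members. At least 3 of the 6 tuft markers were found in 0 wild type members and 1 knockout member. Summed over all members these markers were at 42.1 and 37.3 CPM, against 12.6 and 15.8 CPM in nuclei that were not members. KIT, a receptor tyrosine kinase that is on the ionocyte list, the tuft list and the mast cell list, was at 538 and 441 CPM in cluster 17, and 3 of the 4 measured mast cell genes were at 0 there in the wild type and 2 in the knockout library.

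CFTR was concentrated in the wild type members of cluster 17. Of the 34 nuclei, 33 had a CFTR UMI, with a median of 6.5 and at most 20 UMIs in a nucleus. Their summed level was 2488 CPM (2199 to 2804, 268 UMIs). Over all 91 wild type members it was 711 CPM (651 to 774, 524 UMIs), and in the 57 outside cluster 17 it was 407 CPM (358 to 460). In those 57 nuclei CFTR was uneven, with no UMI in 27 and up to 30 UMIs in a nucleus.

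The members supplied 32.5% (30.2% to 34.8%) of the 1613 CFTR UMIs of wild type nuclei with at least 1000 UMIs, from 2.10% of these nuclei. Cluster 17 alone supplied 16.6% from 0.785%. Nuclei that fell in no marker class supplied 34.0% from 37.4% of the nuclei. Sustentacular-like nuclei supplied 11.9% from 10.4%, and immature neuron-like nuclei 6.26% from 19.8%. Wild type CFTR was next highest in gland-like nuclei at 334 CPM (257 to 427), secretory-like nuclei at 293 CPM (174 to 463) and basal-like nuclei at 180 CPM (128 to 245). These classes held only 36, 15 and 58 nuclei, with 63, 18 and 40 CFTR UMIs. The intervals of members outside cluster 17 and gland-like nuclei overlap, as do those of gland-like and secretory-like and of secretory-like and basal-like nuclei. Pericyte-like nuclei had 175 CPM from 16 UMIs, of which 12 lay in 1 nucleus. Ciliated-like nuclei had 121 CPM (86.8 to 164) and sustentacular-like nuclei 88.2 CPM (76.1 to 102). Mature neuron-like nuclei had 12.3 CPM (7.68 to 18.5).

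**Figure D2:**
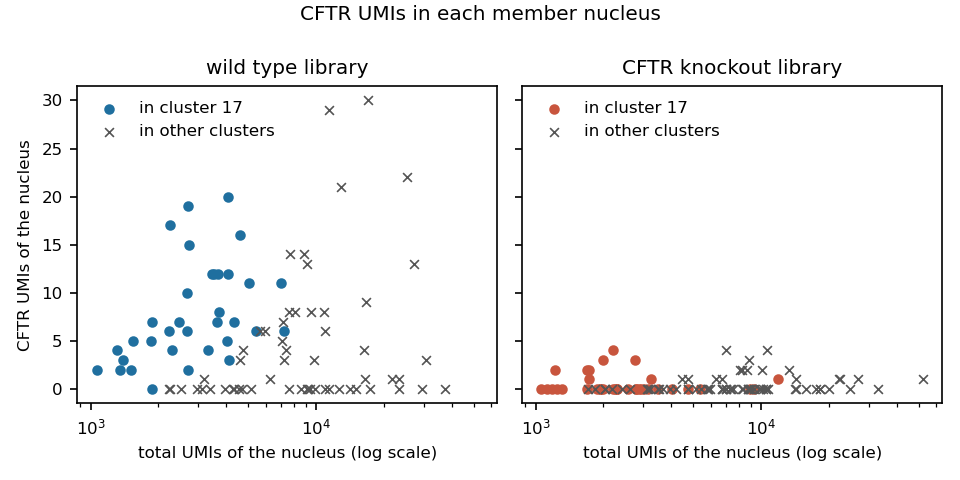
CFTR UMIs (vertical axis) against total UMIs on a log scale (horizontal axis) for each member nucleus, in the wild type (left) and knockout (right) library. Filled circles are members in cluster 17 and crosses members in other clusters. In cluster 17, 33 of 34 wild type nuclei have CFTR UMIs, up to 20, and 9 of 36 knockout nuclei have them, up to 4.

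In the knockout library CFTR was lower in the members but not at 0. The 36 members in cluster 17 had 175 CPM (105 to 273, 19 UMIs), a ratio of knockout to wild type of 0.0702 (0.0416 to 0.112) and a log2 ratio of -3.83. Of these nuclei 27 had no CFTR UMI, and the other 9 had 1 to 4. Over all members the level was 60.9 CPM (45.0 to 80.5, 49 UMIs), a ratio of 0.0857 (0.0626 to 0.115) and a log2 ratio of -3.55. Nuclei that were not members had 61.5 and 10.4 CPM, a ratio of 0.169 (0.142 to 0.200). The knockout members still supplied 24.0% (18.3% to 30.5%) of the 204 CFTR UMIs of their library. Neither the counted part of the transcript nor the part of the gene changed by the knockout is named by the labels, so remaining UMIs do not speak to the label.

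The shares of nuclei with a CFTR UMI were also compared at a fixed depth. After each nucleus was thinned to 1000 UMIs, a CFTR UMI remained in 30 of 34 (88.2%) wild type and 7 of 36 (19.4%) knockout members in cluster 17, and in 51.6% and 10.2% of all members. Without thinning the shares were 97.1% and 25.0% in cluster 17, and 69.2% and 24.1% of all members. Glia-like nuclei, which should lack CFTR, had a UMI in 3 of 66 wild type nuclei (4.55%) and in 0 of 44 knockout nuclei, where a count of 0 allows up to 6.82% (3 counts of the total). After thinning they had none in either library. Their median depths were 2884.5 and 3222 UMIs.

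**Figure D3:**
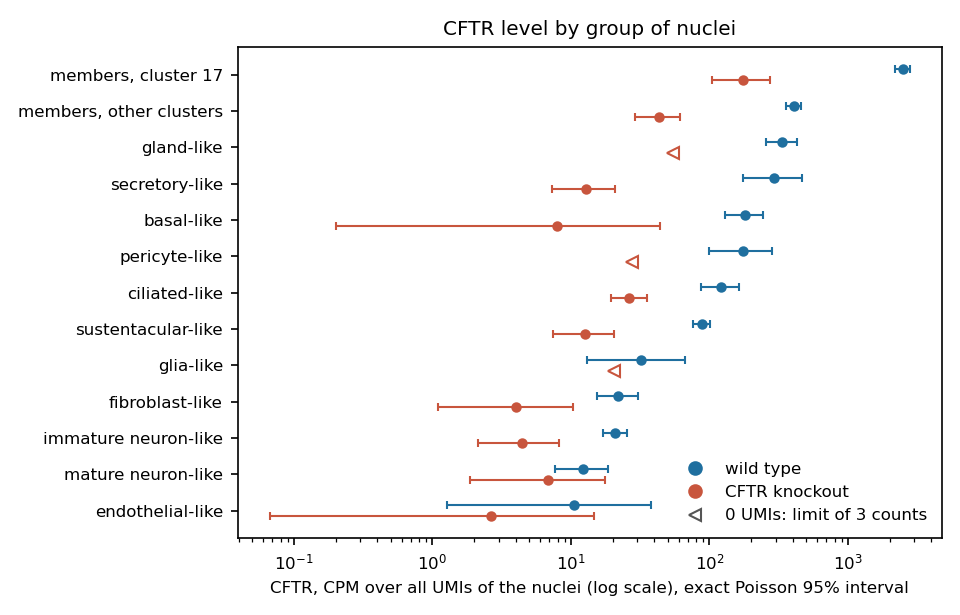
CFTR level in CPM on a log scale (horizontal axis) for members in cluster 17, members in other clusters and marker classes of other nuclei (vertical axis), in the wild type and knockout libraries. Points are summed levels with exact Poisson 95% intervals, and open triangles mark the limit that 0 UMIs allow (3 counts). Cluster 17 has the highest point in both libraries, at 2488 and 175 CPM.

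A gene was counted as raised when its CPM in members was at least 4-fold (log2 of 2) above that of the other nuclei with at least 1000 UMIs in both libraries. Of 8624 genes with at least 10 UMIs in the members of each library, 47 were raised (0.545%). In cluster 17 it was 98 of 2159 (4.54%). Members were chosen on these same counts, so the values describe them and are no test. The 25 genes with the highest ratios besides the rule genes had a log2 ratio, in the library where it was smaller, from 2.65 to 5.81. In cluster 17 these 25 genes stood higher still in each library.

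The transcription factors among these 25 were TFCP2L1 and ESRRG. TFCP2L1, which is needed for the proton-secreting intercalated cells of the kidney, was at 197 CPM in wild type and 221 CPM in knockout members. It was at 696 and 607 CPM in cluster 17 and at 9.82 and 28.8 CPM in the other nuclei. ESRRG, an orphan nuclear receptor linked to oxidative metabolism, had a UMI in all 34 and all 36 members of cluster 17, at 3509 and 3006 CPM. In the other nuclei it was at 44.3 and 122 CPM. DMRT2, a further ionocyte factor on the fixed list, was at 139 and 46.0 CPM in cluster 17, from 15 and 5 UMIs.

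Proton pump subunits were raised in part. ATP6V1G3, a subunit of the pump's cytosolic sector with a narrow tissue distribution, was at 102 and 101 CPM in members, at 399 and 303 CPM in cluster 17, and at 1.47 and 2.68 CPM in the other nuclei. ATP6V1B1, the subunit typical of acid-secreting epithelia, was at 353 and 358 CPM in cluster 17 against 24.4 and 21.6 CPM in the others. Of the 18 subunits measured in members, these 2 passed the 4-fold limit, beside 0.545% of all genes. Of the 8 measured in cluster 17, 4 passed it, beside 4.54% of all genes, with ATP6V1A (706 and 689 CPM) and ATP6V1C2 (863 and 1186 CPM) as the further ones. Only these 8 of the 21 subunits in the counts had at least 10 UMIs in cluster 17 in each library. Subunits high there pass that minimum more easily, so the count describes the subunits measured and not the whole list.

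Sustentacular-like nuclei carried some of the same subunits. They had ATP6V1C2 at 763 and 632 CPM, beside 509 and 621 CPM in all members and 863 and 1186 CPM in cluster 17. In the wild type library the intervals of cluster 17 and sustentacular-like nuclei overlap. ATP6V0A4, a membrane sector subunit, was at 591 and 443 CPM in sustentacular-like nuclei and at 288 and 147 CPM in cluster 17. By contrast ATP6V1G3 had 3 UMIs in 452 wild type and 0 UMIs in 323 knockout sustentacular-like nuclei. ATP6V0D2, which marks ionocytes in other species, had 0 UMIs in the members of both libraries, which allows up to 4.07 and 3.73 CPM.

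Sodium channel and exchanger genes stood high among the members. SCNN1B and SCNN1G encode the beta and gamma subunits of the epithelial sodium channel. SCNN1B was at 279 and 267 CPM in cluster 17 against 7.06 and 10.3 CPM in the other nuclei. SCNN1G had the same UMI counts in cluster 17, 30 and 29, against 9.65 and 16.5 CPM elsewhere. The alpha subunit gene SCNN1A was at 195 and 221 CPM in cluster 17 against 27.1 and 40.2 CPM. The sodium and proton exchanger gene SLC9A4 was at 44.8 and 62.1 CPM in members, 158 and 211 CPM in cluster 17 and 0.790 and 1.14 CPM elsewhere.

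Of 20 ion and fluid transport genes measured against other nuclei in members, 5 were raised (0.545% of all genes). In cluster 17 it was 7 of 10 (4.54% of all genes), namely CFTR, SLC9A2, KCNMA1, SCNN1A, SCNN1B, SCNN1G and ITPR2. Only these 10 of the 39 list genes in the counts had at least 10 UMIs in cluster 17 in each library. Genes high in cluster 17 pass that minimum more easily, so the count describes the genes measured and not the whole list. KCNMA1, a calcium-activated potassium channel, had a UMI in 34 of 34 and 35 of 36 nuclei of cluster 17, at 3639 and 2803 CPM against 282 and 393 CPM elsewhere. ITPR2, a calcium release channel, was at 2924 and 3640 CPM. The barttin gene BSND, a chloride channel subunit of kidney and inner ear, had 6 and 8 UMIs in members and 1 and 3 in the other nuclei. ANO1, a calcium-activated chloride channel, had 0 and 1 UMIs in cluster 17. SLC4A4, a sodium bicarbonate cotransporter, was at 46.4 and 119 CPM in cluster 17 against 986 and 1191 CPM in gland-like nuclei.

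Several of the 25 genes are better known from neurons. SCN1A, a voltage-gated sodium channel, was at 1411 and 1618 CPM in cluster 17 against 14.7 and 11.2 CPM in the other nuclei, which include the olfactory neurons. The neurotrophin gene BDNF was at 232 and 248 CPM against 1.86 and 2.54 CPM. GRM3, a metabotropic glutamate receptor, was at 733 and 358 CPM, and KCNH1, a voltage-gated potassium channel, at 232 and 469 CPM. CACNA2D3, a calcium channel subunit, was at 622 and 607 CPM, and NCALD, a neuronal calcium sensor, at 2247 and 2298 CPM. Markers of immature neurons summed to 176 and 138 CPM in cluster 17 against 1137 and 737 CPM in the other nuclei. Those of mature neurons summed to 223 and 294 CPM against 742 and 500 CPM.

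The remaining genes of the 25 had varied roles. DGKI, a diacylglycerol kinase that was used as a marker and not in the rule, had a UMI in 66 of 91 and 90 of 108 members, at 859 and 1062 CPM against 51.4 and 56.1 CPM elsewhere. SLC35F3, a transporter linked to thiamine, was at 1012 and 1305 CPM in cluster 17 against 6.83 and 6.42 CPM. The copper transporter SLC31A2 was at 529 and 432 CPM in cluster 17. The copper pump ATP7B, which joined the top 25 when cluster 17 was ranked on its own, was at 223 and 165 CPM. HPSE, which cuts heparan sulfate, was at 353 and 671 CPM, and PDGFD, a growth factor, at 761 and 478 CPM. SLC4A1, the chloride and bicarbonate exchanger of red cells and intercalated cells, had 11 and 33 UMIs in members. TMEM61, LRTM1, ADGRF1, MAMDC2, NEURL1, STAC2 and RNF152 completed the list, from 46.0 CPM (STAC2, knockout) to 1207 CPM (ADGRF1, wild type) in cluster 17.

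**Figure D4:**
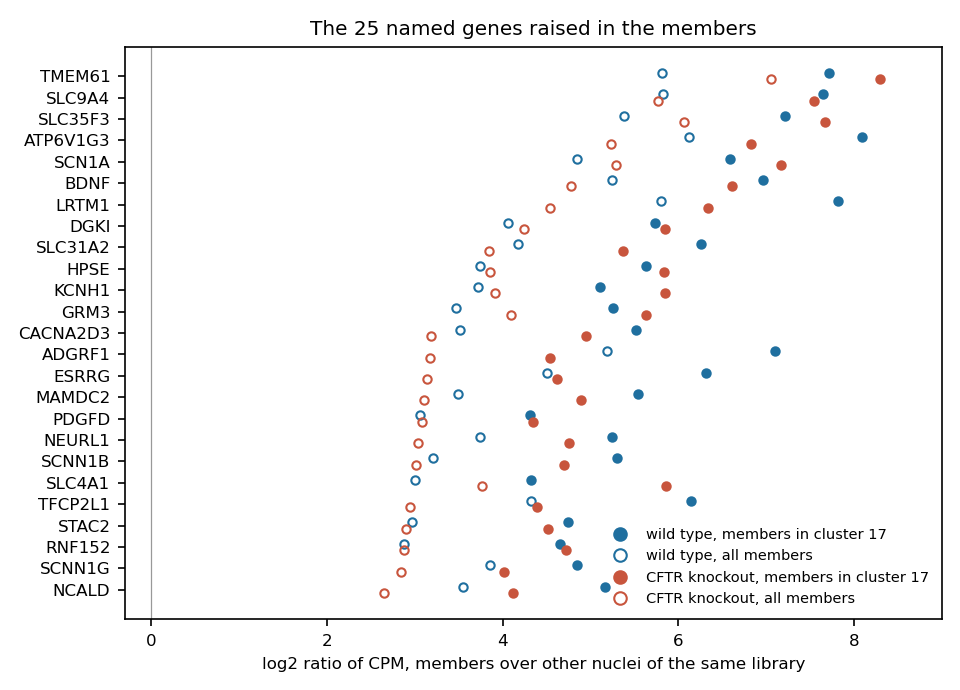
Log2 ratio of CPM, members over other nuclei of the same library (horizontal axis), for the 25 named genes (vertical axis). Open circles are all members and filled circles the members in cluster 17, by library. Filled circles lie to the right of the open ones of the same gene and library.

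Between the libraries, the lists of genes known from ionocytes had median log2 ratios from -0.22 to 0.10, in members or in cluster 17. In members the 18 measured proton pump subunits had a median log2 ratio of knockout to wild type of 0.08, with 13 above and 5 below 0. The 22 ion and fluid transport genes had 0.04 (11 above, 11 below) and the 19 ionocyte genes 0.10 (10 above, 9 below), beside 0.12 over all 9535 genes with at least 20 UMIs. The measured ionocyte genes include the rule genes FOXI1, STAP1, CLNK and HEPACAM2, in members and in cluster 17. Members were chosen on these genes, so the ionocyte values depend in part on that choice. In cluster 17 the medians were -0.14 over 12 subunits, -0.06 over 13 transport genes and -0.22 over 16 ionocyte genes, beside 0.24 over 2706 genes. All 3 medians of members turned below 0 with at least 3 rule genes (-0.14, -0.50 and -0.33). Without HEPACAM2 in the rule they were at -0.14, -0.36 and -0.31, and with at most 1 marker of every other type at -0.33, -0.46 and -0.48. In members outside cluster 17 they were above 0, at 0.33, 0.20 and 0.33. The medians have no firm sign, as it differed with the members taken.

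Past a 2-fold difference (log2 of 1 or more), 1 of the 18 subunits, 3 of the 22 transport genes and 1 of the 19 ionocyte genes were higher in knockout members, against 8.72% of all genes measured. Lower past that limit were 0, 2 and 2, against 5.6%. In cluster 17, 2 of 12, 1 of 13 and 2 of 16 were higher, against 12.4%, and 1, 2 and 1 were lower, against 4.47%. The 4 rule genes that could be measured, FOXI1, STAP1, CLNK and HEPACAM2, stood at -0.83, 0.13, 0.31 and -0.13 in members. The FOXI1 value came from 26 and 16 UMIs (-1.82 to 0.13). Members were chosen on these genes, so their ratios describe the choice.

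CFTR was the lowest of the transport genes in members and in cluster 17. In cluster 17 ATP1B1, which encodes a beta subunit of the sodium pump, had 79 and 46 UMIs, a log2 ratio of -0.79 (-1.35 to -0.25). Over all members it was at -0.42. KCNMA1 was at -0.38 (-0.60 to -0.16) in cluster 17 and -0.02 in members. SLC4A1 had 4 wild type and 19 knockout UMIs in cluster 17, a log2 ratio of 2.23 (0.64 to 4.25), and 1.46 in members. SLC26A4, an anion exchanger, had 8 and 33 UMIs in members (1.92, 0.77 to 3.24), from 5 and 10 nuclei. CLCN3, the other transport gene higher past 2-fold in members, had 85 and 213 UMIs (1.20, 0.83 to 1.58). In cluster 17 it had 9 and 18 (0.99, -0.24 to 2.32). Besides CFTR, the transport gene lower past 2-fold in members was AQP5, with 26 and 12 UMIs (-1.24, -2.36 to -0.20). GOLM1, a Golgi protein on the ionocyte list, was at 1.70 (0.43 to 3.17) in cluster 17, from 7 and 23 UMIs, and 1.20 in members. DMRT2 was at -1.60 (-3.41 to -0.07) in cluster 17 and -1.28 in members.

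**Figure D5:**
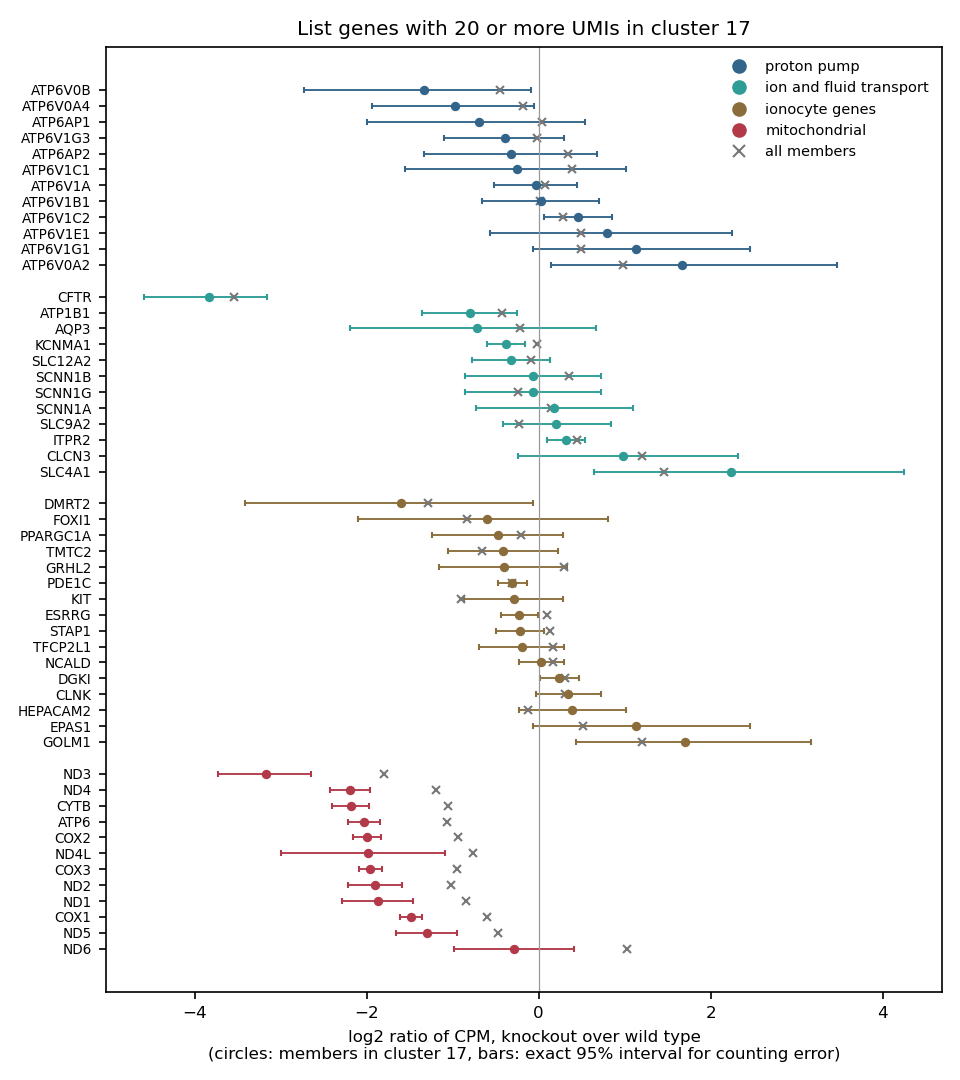
Log2 ratio of CPM, knockout over wild type (horizontal axis), for genes of 4 lists with at least 20 UMIs in cluster 17 (vertical axis, grouped by list, without 1 transport gene). Circles with bars are members in cluster 17 with exact 95% intervals for counting error, and crosses are all members. Apart from CFTR at -3.83, the lowest circles are mitochondrial transcripts, down to ND3 at -3.16.

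Mitochondrial transcripts were lower in the knockout members. They made up 9.27% of wild type and 2.49% of knockout UMIs in cluster 17, 4.14% and 2.21% in all members, and 2.66% and 1.17% in the other nuclei. Their median log2 ratio was -1.97 in cluster 17, with 12 of 12 below 0, and -0.93 in members, with 12 of 13 below 0. ND6 was at 1.03 in members and at -0.28 in cluster 17. In nuclei these transcripts come from outside the nucleus, and how they reached the droplets was not tested.

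Interferon response genes were higher in knockout members, as they were in the other nuclei. Of 18 measured genes 17 lay above 0, with a median of 0.88 beside 0.12 over all genes, and 7 were past 2-fold beside 8.72% of all genes. MX2, an antiviral GTPase, had 15 and 64 UMIs (1.97, 1.14 to 2.88), and OAS2, an antiviral enzyme, 16 and 47 (1.43, 0.58 to 2.35). In cluster 17 no gene of the list reached 20 UMIs. Summed over the list there were 38 and 85 UMIs there, or 353 and 781 CPM, a log2 ratio of 1.15 (0.58 to 1.74) beside 0.96 in nuclei that were not members. Notch pathway genes had a median of 0.05 in members (7 above and 4 below 0), and the coactivator MAML3 was at 1.15 (0.54 to 1.77) in cluster 17 and -0.23 in members. Of 5 tuft cell genes measured in members 2 lay above and 3 below 0, with a median of -0.57, from POU2F3 at -1.45 (20 and 8 UMIs) to GNAT3 at 3.83 (2 and 31 UMIs).

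Over all genes in members, 831 were at least 2-fold higher and 534 at least 2-fold lower in the knockout library. TMM scaling shifts the log2 ratio of genes with UMIs in both libraries by -0.12. With it these counts became 623 and 702, so which direction holds more genes depends on the scaling. Markers of other types moved with them: summed ciliated markers were at 365 and 1844 CPM in members and secretory markers at 175 and 913 CPM, while immature neuron markers were at 788 and 393 CPM. In cluster 17 ciliated markers were at 83.6 and 119 CPM, with 5 of the 6 at 0 UMIs in the wild type and 2 in the knockout library, and secretory markers at 288 and 993 CPM. In the other nuclei ciliated markers were at 437 and 1474 CPM and secretory markers at 217 and 1168 CPM. Their part in the differences below was not tested.

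The 12 genes furthest up in knockout members were NWD2, FRMPD2, TMEM212, LY6D, IDO2, TCTEX1D4, DTHD1, BPIFA1, BTG4, KIAA2012, ODF3B and ECT2L. NWD2 had 0 and 109 UMIs in members, none of them in cluster 17. BPIFA1, a secreted airway defence protein, had 23 and 359 UMIs, of which 13 and 52 lay in cluster 17, and was at 33.3 and 663 CPM in nuclei that were not members. All 12 were also higher in the other nuclei of the knockout library, by log2 ratios from 2.76 for NWD2 to 4.88 for LY6D. In cluster 17 they were sparse: LY6D had 0 and 16 UMIs, TCTEX1D4 0 and 14 and TMEM212 0 and 9, and apart from BPIFA1 the rest had at most 1 wild type and 7 knockout UMIs.

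The 12 genes furthest down were TEX15, CFTR, ZNF536, PURG, OVCH1, LRRC7, NCAM2, MCIDAS, MYT1L, ADAMTSL1, BRINP3 and SCARA5. TEX15 had 153 and 0 UMIs in members and 3 and 0 in cluster 17. PURG had 530 and 79 UMIs in members (-2.87), and 2 and 4 in cluster 17. NCAM2, a cell adhesion gene of olfactory axons, had 291 and 68 (-2.22), and 5 and 5 in cluster 17. CFTR apart, none of the 12 had more than 5 UMIs in cluster 17 in either library. MCIDAS, a regulator of multiciliated cells with 20 and 1 UMIs in members, was higher in the other nuclei of the knockout library (4.97 and 10.2 CPM), while the other 11 were lower there.

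Within cluster 17, 336 of 2706 genes were at least 2-fold higher and 121 at least 2-fold lower. The following were chosen after these values were seen, by the bound of the ratio nearer to 0. PADI1, which converts arginine to citrulline in proteins, had 0 and 27 UMIs, and BPIFB1, a secreted airway protein, 0 and 23. ALDH1A1, which makes retinoic acid, had 2 and 33. SCIN, an actin-severing protein, PLCXD3 and PPP4R4 had 1 and 23 each, and TACR1, the substance P receptor, 4 and 36. IFITM3, an interferon-induced antiviral protein, had 4 and 38. In nuclei that were not members PADI1, BPIFB1, ALDH1A1, PPP4R4, SCIN, IFITM3 and TACR1 were also more than 2-fold higher in the knockout library, by log2 ratios from 1.22 for PADI1 to 3.15 for BPIFB1. PLCXD3 was at 0.57 there. CAPN13, a calpain, had 4 and 39 UMIs in cluster 17 and a log2 ratio of 0.27 elsewhere. CHST9, a sulfotransferase, had 2 and 26 and a log2 ratio of -0.34 elsewhere. The lowest besides CFTR and mitochondrial transcripts was ELOVL6, which lengthens fatty acids, with 40 and 7 UMIs (-2.53, -3.93 to -1.36) in cluster 17 and a log2 ratio of 0.01 elsewhere.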

How the data were processed

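Each deposited table holds raw UMI counts of 25880 genes in every nucleus of a library, whole numbers that the authors left unscaled. Cell Ranger, Seurat 4.0 and R 4.0.2 are named in the submitters' processing notes; aligner, build, annotation and chemistry version were not given in the sources used here. Every barcode had at least 500 UMIs. Groups follow the genotype label. The members and gene lists were chosen with earlier results of these data known. UMIs were summed over nuclei and scaled to CPM, with exact Poisson, Clopper-Pearson or conditional binomial 95% intervals (scipy 1.17.1). These cover counting error only. No doublet caller was applied in the values reported; an alternative left out the nuclei with the highest Scrublet scores, at 0.8% per 1000 nuclei (scanpy 1.11.5).

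Clustering used 2000 variable genes, 30 principal components, 15 neighbours and Leiden resolution 1 (igraph 0.11.9), on counts scaled to 10000 per nucleus and log transformed. Nuclei that were not members took the class of which most markers had a UMI, with at least 3 and no tie. Genes named were the rule and exclusion genes, CFTR, the 25 most raised in members, the 12 highest and 12 lowest by the interval bound of the ratio between libraries, and members of the fixed lists with at least 20 UMIs. The genes named from rankings within cluster 17, and BSND and ATP6V0D2 below that minimum, were chosen after their values were seen. A value of 0 was set to 3 counts for ratios. TMM factors came from edgeR 4.0.16. The calculation was tested on simulated counts.

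Other readings of the rule, depth, scaling, count minimum and doublets were tried, as were members inside and outside cluster 17 and totals without mitochondrial transcripts, both chosen after the data were seen. Single values of 1 member of the transport list are not reported here; it stays in the counts and medians.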

Additional observations from a re-analysis of the deposited data

How the results depend on the processing

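No paired analysis was possible because each genotype has 1 library, and no replicate could be left out. Log2 ratios are knockout over wild type. The CFTR ratio in members stayed negative under every alternative run, from -2.34 as a ratio of shares after thinning to -4.02 in the 20 wild type and 13 knockout members with at most 1 marker of every other type, where 87 genes were 2-fold higher and 88 lower and the proton pump, transport and mitochondrial medians were -0.33, -0.46 and -1.76. With at least 3 rule genes these medians were -0.14, -0.50 and -1.28, and without HEPACAM2 in the rule -0.14, -0.36 and -1.19. With members weighted equally the mitochondrial median was -1.32 and 73 genes were raised. For genes with UMIs in both libraries, TMM shifted the ratios by -0.12 and median-of-ratios factors by -0.09. These shifts put the proton pump median at -0.044 and -0.017. With 50 UMIs per gene there were 432 higher, 251 lower and 29 raised genes, and with 1 UMI in each library 1706, 1474 and 103. In cluster 17 there were 336 higher, 121 lower and 98 raised, with proton pump and mitochondrial medians of -0.14 and -1.97; without mitochondrial transcripts in the total these were 294 and 159, -0.25 and -2.07. Outside cluster 17 the ionocyte median was 0.33. PURG turned to 0.99 in cluster 17, and to 0.88 there without mitochondrial transcripts, from 2 and 4 UMIs. The member share, with a log2 ratio of 0.13, was at -0.06 with nuclei of 500 or more UMIs. After thinning to 1000 UMIs it was at 0.45, from 29 wild type and 43 knockout members. It was at 0.37 with at least 3 rule genes, 0.29 without HEPACAM2 in the rule and 0.25 with 2000 or more UMIs. Of the values for the main comparisons, 126 stayed within their limits and 33 moved, and the cause was not tested. Depth limits cluster 17, where 107715 and 108798 UMIs leave most genes under 20 UMIs.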
